A study of Homo sapiens with 6 samples.

Results

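The ADAMTS proteases are secreted zinc metalloproteases that carry thrombospondin type 1 repeats, and 10 of their genes were described here in HT1080 cells with and without an edit of TOP3B. The genes were listed by symbol, with earlier results of these data known, as ADAMTS1, ADAMTS2, ADAMTS4, ADAMTS5, ADAMTS6, ADAMTS7, ADAMTS9, ADAMTS10, ADAMTS12 and ADAMTS15. Of these 10, 8 were found among the 35820 genes of the count table, and ADAMTS5 and ADAMTS15 are not analysed here. The low-count filter passed 6 of the 8, and ADAMTS4 and ADAMTS10 did not pass it.

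ADAMTS enzymes are made as inactive proenzymes, and proprotein convertases such as furin remove the propeptide before or after secretion. The repeats and the spacer domain that follow the catalytic domain hold the enzyme to its substrates in the extracellular matrix, and TIMP proteins block the active site. The family is usually sorted by substrate: enzymes that cut the large proteoglycans versican and aggrecan, enzymes that trim the amino propeptide from fibrillar procollagens, enzymes that cut cartilage oligomeric matrix protein (COMP), and enzymes tied to fibrillin microfibrils. HT1080 is a human fibrosarcoma line with a mesenchymal character, a kind of cell in which matrix and matrix-cutting genes are normally active.

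Ribosomal RNA-depleted total RNA was sequenced from 3 libraries of WT HT1080 cells and from 3 of HT1080 cells labelled TOP3B Knock out. Per the series text the knockout cells are clone E2-2, made with CRISPR and a guide to exon 2 of TOP3B, so 1 clone was compared with its WT line. An effect of the TOP3B edit and other differences between this clone and the WT line cannot be told apart. Both groups were grown in the same serum-containing medium, and no treatment or time point is given. TOP3B encodes topoisomerase III-beta, which acts on DNA and RNA, and the stated aim was its part in R-loops (RNA-DNA hybrids) and in transcription. The series text names HCT116, a colon carcinoma line, once for the WT cells, whereas each sample label names HT1080. The mesenchymal filament gene VIM was at 11310 to 12352 CPM (counts scaled to library size) in the 6 libraries. The mesenchymal gene FN1 was called lower in the knockout by 3.70-fold, from a mean of 11748 to 3174 CPM. COL5A1, also mesenchymal, was called lower by 3.49-fold, from a mean of 9.63 to 2.76 CPM. Of the epithelial genes, KRT20 and CDX2 had 0 counts in all 6 libraries, EPCAM was at 0 to 0.295 CPM and VIL1 had at most 1 count. CDH1 was at 1.36 to 2.43 CPM and LGALS4 at 1.08 to 3.12 CPM in the 6 libraries. The fibroblast marker THY1 had 1 count in 1 WT library and 0 in the others. Other markers of this kind were low or uneven over the 6 libraries. CDH2 was at 1.12 to 20.3 CPM, COL6A1 at 0.716 to 29.2 CPM and S100A4 at 0.906 to 4.16 CPM. None of these passed, and all knockout libraries lay below all WT libraries for S100A4. TOP3B RNA itself was at 24.2 ± 5.82 CPM in WT and 19.3 ± 0.774 in the knockout (SD, n = 3 each), and gene-level counts of this kind do not check a small edit.

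Library totals lay between 17919112 and 20475280 estimated counts. Knockout replicate 3 stood apart from the other knockout libraries. Over genes above a mean log2 CPM of 4, log2 differences between it and knockout replicates 1 and 2 had an SD of 0.623 and 0.599, against 0.238 between those other two and 0.268 to 0.327 within WT. Each tested member is therefore also given without that library. The labels do not say whether replicates are separate cultures, so p-values speak only of the spread among these libraries. In bulk RNA, more cells expressing a gene and more RNA per expressing cell cannot be told apart.

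The members spanned a wide range of levels. Levels of different genes can be compared only per length, and the choice of length matters for this family, because most of its genes are long and mostly intron. In GENCODE v29 (GRCh38), exons make up 2.65% of ADAMTS12, 2.57% of ADAMTS6, 3.72% of ADAMTS2, 6.20% of ADAMTS9, 14.8% of ADAMTS7 and 73.1% of ADAMTS1. The length implied by the deposited counts and RPKM values was taken as the median over libraries. It was 201479 bases for ADAMTS12 and 134179 for ADAMTS2. These are close to the mean genomic span of their annotated transcripts (194874 and 134145 bases), introns included. The implied length was 100% of that span for ADAMTS6, ADAMTS7 and ADAMTS9 as well. ADAMTS1 was the exception, as its implied length of 7456 bases was 189% of its span and close to its 7063 bases of merged exons. Both scales are therefore given, the deposited RPKM and CPM per kilobase of merged exons. Which kind of length the RPKM of ADAMTS1 rests on was not tested, so its place on that scale is uncertain. The implied length of ADAMTS12 differed between libraries and was longest in WT replicate 1, which held 2 counts. Its RPKM therefore does not rest on a fixed length.

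On the RPKM scale in WT cells, ADAMTS9 was the most abundant member at 1.28 ± 0.0824 (SD, n = 3, as for all means below). It was followed by ADAMTS6 at 0.431 ± 0.0597, ADAMTS2 at 0.291 ± 0.0354, ADAMTS7 at 0.250 ± 0.0720 and ADAMTS1 at 0.177 ± 0.0397 RPKM. ADAMTS12 was far below these at 0.00130 ± 0.00114 RPKM. In this order the libraries of ADAMTS2 and ADAMTS7 overlapped, as did those of ADAMTS7 and ADAMTS1, while the other neighbours did not overlap.

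On the exon scale the order in WT was the same, but ADAMTS9 at 8.82 ± 0.566 and ADAMTS6 at 8.35 ± 1.097 CPM per kb of exon overlapped. In the knockout, ADAMTS6 had the highest mean on this scale at 10.95 ± 2.61, but overlapped ADAMTS2 at 8.10 ± 0.690, and in knockout replicate 3 it was below it (7.96 against 8.88). ADAMTS9 was at 6.72 ± 0.620 CPM per kb of exon. ADAMTS12 reached 0.308 ± 0.0389 CPM per kb of exon there, within the range of ADAMTS1, which was at 0.326 ± 0.145. On the RPKM scale ADAMTS12 in the knockout stayed below ADAMTS1, at 0.0157 ± 0.00248 against 0.322 ± 0.159. The labels do not state which part of the counts came from introns, and no preference between these scales was drawn.

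**Figure D1:**
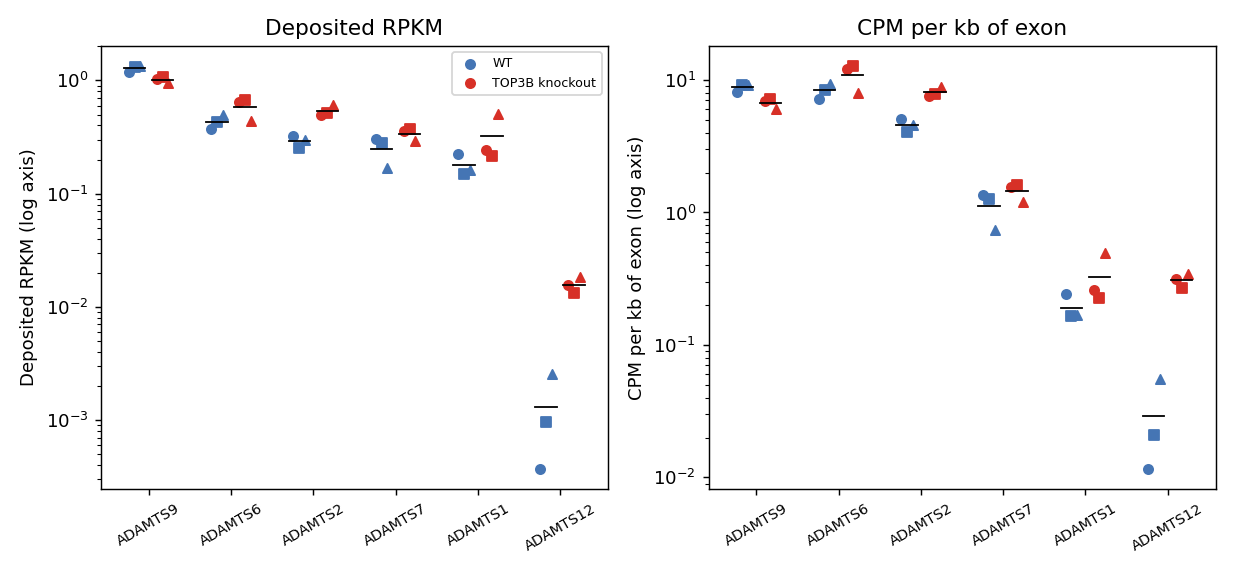
Levels of 6 ADAMTS genes per length on log axes, as deposited RPKM (left) and as CPM per kilobase of merged exons (right), with 1 point per library (circle, square and triangle for replicates 1, 2 and 3) and a black line at the mean of 3 libraries. ADAMTS12 in the knockout lies at 0.0157 RPKM, below ADAMTS1, but at 0.308 CPM per kb of exon, within the range of ADAMTS1.

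The comparison of knockout with WT asked which ADAMTS transcripts differ in the edited clone. ADAMTS2 and ADAMTS12 were higher in the knockout clone, ADAMTS2 by 1.78-fold and ADAMTS12 by 10.2-fold, and no member passed as lower. Of the 8 members with a row, 2 were called higher, 0 lower, 4 did not pass and 2 were not tested. The call was an adjusted p under 0.05 by edgeR (quasi-likelihood), which held for 7.84% of all 13965 genes tested, 3.21% as higher and 4.63% as lower. For the count of 0, 1 member (ADAMTS9) was lower at an unadjusted edgeR p of 0.0109, and limma-voom called 0. DESeq2 called 2 members higher, where 6.56% of all genes were, and 1 lower, again ADAMTS9, where 9.19% were. The WT and knockout libraries did not overlap for 3 of the 6 tested members, 2 higher and 1 lower, against 33.6% of all genes (16.5% higher and 17.1% lower). Without 1 library the count called higher was 0 without WT replicate 1, WT replicate 2 or knockout replicate 2, and 1 without WT replicate 3 or knockout replicate 1. Without knockout replicate 3, edgeR called 3 members higher and 0 lower, where 5.39% and 7.84% of genes were called. The 6 tested members had a median log2 fold change of 0.579, against 0.0495 over all genes tested. ADAMTS12 entered the test only through its knockout libraries, so neither this median nor the share of calls stands for the family.

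**Figure D2:**
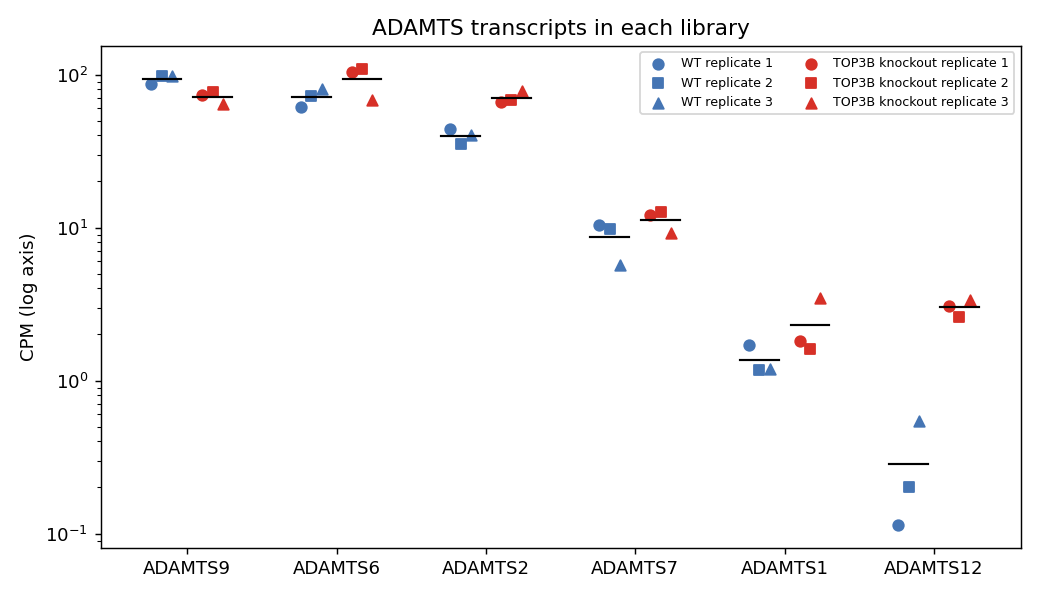
CPM of the 6 tested ADAMTS genes in each of 3 WT and 3 knockout libraries, on a log axis, with a black line at each group mean. The knockout libraries lie above all WT libraries for ADAMTS2 and ADAMTS12 and below them for ADAMTS9, and the groups overlap for ADAMTS6, ADAMTS7 and ADAMTS1.

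ADAMTS2 encodes the procollagen N-proteinase that removes the amino propeptide of type I and other fibrillar procollagens, and its loss causes a form of Ehlers-Danlos syndrome. The gene has 22 exons in its longest annotated transcript and lies on the minus strand at chr5:179110851-179345430 (GRCh38). WT replicates 1, 2 and 3 held 775, 692 and 816 counts of it, or 44.1, 35.1 and 40.1 CPM. Knockout replicates 1, 2 and 3 held 1341, 1363 and 1514, or 66.0, 68.6 and 77.5 CPM. The lowest knockout library stood above the highest WT library. This came to 39.8 ± 4.53 CPM in WT and 70.7 ± 6.02 in the knockout, a log2 fold change of 0.83 ± 0.13 (SE) with an edgeR adjusted p of 0.0166. The difference did not depend on knockout replicate 3, without which it was 0.75 ± 0.12 (edgeR adjusted p = 0.0143). Over all alternatives the adjusted p ranged from 1.70e-06 (DESeq2) to 0.0796 (edgeR, without WT replicate 2). The call was kept in 2 of 6 fits without 1 library. It was lost, at an edgeR adjusted p of 0.0528, 0.0796, 0.0784 and 0.0597, without WT replicates 1, 2 and 3 and knockout replicate 2.

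ADAMTS12 and ADAMTS7 are paralogs that cut COMP and share a mucin-like region not found in most of the family. ADAMTS12 lies on the minus strand at chr5:33523535-33892192 (GRCh38), with 24 exons in its longest transcript. Only 2, 4 and 11 counts were found in WT replicates 1, 2 and 3 (0.114, 0.203 and 0.541 CPM). The knockout replicates had 62, 52 and 66 (3.05, 2.62 and 3.38 CPM). The groups were well separated, and WT replicate 3 was the highest of the WT libraries. The log2 fold change was 3.35 ± 0.56 (SE; 95% interval 2.02 to 4.68) with an edgeR adjusted p of 0.0187. The WT libraries together held 17 counts. Without knockout replicate 3 the log2 fold change was 3.25 ± 0.62. Without WT replicate 3 it was 4.18, and without WT replicate 1 it was 2.99. The call was kept without WT replicate 3 and without knockout replicate 3, and lost without each of the other 4 libraries (edgeR adjusted p of 0.0585 to 0.0917). On log2 RPKM with a pseudocount of 0.1, limma gave an adjusted p of 0.0664 for ADAMTS12 and 0.05002 for ADAMTS2, neither passing. With a pseudocount of 1 the log2 fold change of ADAMTS12 was 0.0206. Its limma adjusted p there was 0.176, the highest over all alternatives, while ADAMTS2 passed at 0.0347.

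ADAMTS7, known from genetic studies of coronary artery disease, lies on the minus strand at chr15:78759203-78811431 (GRCh38). The WT replicates held 183, 192 and 116 counts (10.4, 9.73 and 5.71 CPM), and the knockout replicates 244, 249 and 181 (12.0, 12.5 and 9.26 CPM). Knockout replicate 3 fell within the WT range, and WT replicate 3 was the lowest of the 6 libraries. At 8.62 ± 2.55 against 11.3 ± 1.76 CPM the log2 fold change was 0.39 ± 0.27 (95% interval -0.26 to 1.03), which did not pass (edgeR adjusted p = 0.427). It moved to 0.16 ± 0.22 without WT replicate 3 and to 0.50 ± 0.28 without knockout replicate 3, and lay between 0.16 and 0.53 over the left-out fits. The interval lies below that of ADAMTS12, but the difference between these paralogs was not tested. The pseudogenes ADAMTS7P1, ADAMTS7P3 and ADAMTS7P4 have rows of their own, so reads of ADAMTS7 could have been divided with them and its counts are uncertain. ADAMTS7P4 ranged from 5 to 24 counts a library and did not pass, and the other two had at most 9 counts in any library. MORF4L1, which overlaps ADAMTS7 near its start, was at 473 and 412 CPM in WT and the knockout and did not pass.

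The sequences before the start sites of ADAMTS2, ADAMTS7 and ADAMTS6 are shown to set the start region of ADAMTS2, which rose, beside those of members that did not pass. Each run is the 250 bases before the RefSeq start site (GRCh38.p14), on the minus strand at chr5:179345462-179345711, chr15:78811465-78811714 and chr5:65481921-65482170. Capitals mark matches on either strand to one of 7 motifs: the AP-1 site TGACTCA, the CRE TGACGTCA, the E-box CACGTG, the TEAD site GGAATG, the RUNX site TGTGGT, the GC box GGGCGG and the TATA box TATAAA.
ADAMTS2: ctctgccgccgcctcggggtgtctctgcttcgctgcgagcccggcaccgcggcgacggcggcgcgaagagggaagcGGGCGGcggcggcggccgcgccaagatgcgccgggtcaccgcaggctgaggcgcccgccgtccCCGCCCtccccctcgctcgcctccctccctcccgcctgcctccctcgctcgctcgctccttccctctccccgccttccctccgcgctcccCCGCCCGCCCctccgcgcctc
ADAMTS7: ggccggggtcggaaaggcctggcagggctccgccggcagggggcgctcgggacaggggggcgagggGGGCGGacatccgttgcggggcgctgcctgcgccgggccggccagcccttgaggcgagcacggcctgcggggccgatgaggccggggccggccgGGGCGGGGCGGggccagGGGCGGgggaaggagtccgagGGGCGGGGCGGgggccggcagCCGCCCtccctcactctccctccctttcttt
ADAMTS6: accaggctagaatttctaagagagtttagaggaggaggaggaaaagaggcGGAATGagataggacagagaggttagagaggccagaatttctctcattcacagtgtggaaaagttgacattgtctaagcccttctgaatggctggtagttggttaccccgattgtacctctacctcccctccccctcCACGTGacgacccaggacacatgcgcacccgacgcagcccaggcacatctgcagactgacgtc

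These start regions differ in make-up. The windows of ADAMTS7 and ADAMTS2 hold 7 and 4 GC boxes, some of them overlapping, at 80.8% and 80.0% GC, and none of the other 6 motifs. The window of ADAMTS6 was poorer in GC, at 52.4%, and held 1 E-box and 1 TEAD site. For ADAMTS12 the annotations differ on the start site: 202 of the 250 bases before the RefSeq start lie inside the gene in GENCODE v29, so no start region is shown for it. Over 35116 windows of the same length the median GC content was 58.0%, and 42.6% held a GC box, 11.9% a TEAD site and 6.34% an E-box. Windows were found for 5 of the 10 members, with ADAMTS10 having a pair, and not for ADAMTS1, ADAMTS4, ADAMTS5, ADAMTS9 and ADAMTS15. MORF4L1, which overlaps ADAMTS7, has its start site 0.944 kb downstream of that of ADAMTS7. Whether the ADAMTS7 window lies inside MORF4L1 was not tested. A match describes the letters only.

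Among the proteoglycan-cleaving members none passed, and ADAMTS9 came nearest. ADAMTS9 cuts versican and aggrecan and also has a conserved carboxy-terminal GON domain; it lies on the minus strand at chr3:64515654-64688000 (GRCh38) with 40 exons in its longest transcript. It was at 87.2, 98.0 and 97.2 CPM in WT replicates 1, 2 and 3, from 1531, 1933 and 1977 counts. The knockout replicates were at 73.7, 77.2 and 64.4 CPM, from 1498, 1533 and 1258 counts. All 3 knockout libraries lay below all 3 WT libraries, as did 17.1% of all tested genes. The log2 fold change was -0.39 ± 0.11 (SE) with an edgeR adjusted p of 0.0875. Across alternatives the adjusted p ranged from 0.0151 (DESeq2) to 0.251 (edgeR, without WT replicate 2). Without knockout replicate 3 the log2 fold change was -0.33 ± 0.09 (edgeR adjusted p = 0.0594). It was negative in each of the 15 alternatives and passed with DESeq2 only. The antisense transcripts ADAMTS9-AS1 and ADAMTS9-AS2 overlap this gene and had 0 and at most 10 counts in any library. Whether counting used strand is not stated, so reads of a gene and its antisense partner cannot be told apart.

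ADAMTS1, which cuts versican and is induced by inflammation and at ovulation, is a short gene at chr21:26835747-26845409 on the minus strand (GRCh38). Counts were low, at 30, 23 and 24 in the WT replicates (1.71, 1.17 and 1.18 CPM) and 37, 32 and 68 in those of the knockout. Knockout replicate 3 was about 2 times as high as the other knockout libraries, at 3.48 CPM against 1.82 and 1.61. The group means of 1.35 ± 0.309 and 2.30 ± 1.02 CPM gave a log2 fold change of 0.77 ± 0.41 (95% interval -0.21 to 1.75; edgeR adjusted p = 0.305). Without knockout replicate 3 the log2 fold change was 0.34 ± 0.37, so the size rests largely on 1 library. ADAMTS4, a main aggrecanase of cartilage, had 1 count in 1 WT library and 0 elsewhere. At this depth 3 counts over a group correspond to 0.0521 CPM in WT and 0.0502 in the knockout, so its RNA was not detectable above that level, and no fold change is given.

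Of the members linked to fibrillin microfibrils, ADAMTS6 was detected in every library and ADAMTS10 was not detectable. ADAMTS6, which is needed for normal heart development in mice, lies on the minus strand at chr5:65148736-65481920 (GRCh38). The WT replicates held 1085, 1428 and 1637 counts (61.8, 72.4 and 80.5 CPM), and those of the knockout 2119, 2167 and 1332. Knockout replicates 1 and 2 lay above all WT libraries at 104 and 109 CPM, and knockout replicate 3 lay within the WT range at 68.2 CPM. With all libraries the log2 fold change was 0.39 ± 0.20 (95% interval -0.09 to 0.87; edgeR adjusted p = 0.287). Without knockout replicate 3 it was 0.57 ± 0.12 and passed (edgeR adjusted p = 0.0327), in a fit where 5.39% of genes were called higher. Across all alternatives the edgeR, DESeq2 and limma adjusted p of ADAMTS6 ranged from 0.0327 to 0.536, so the call rests on which knockout libraries enter. ADAMTS10, mutated in Weill-Marchesani syndrome, had 2 counts in WT replicate 3 and 0 in every other library.

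**Figure D3:**
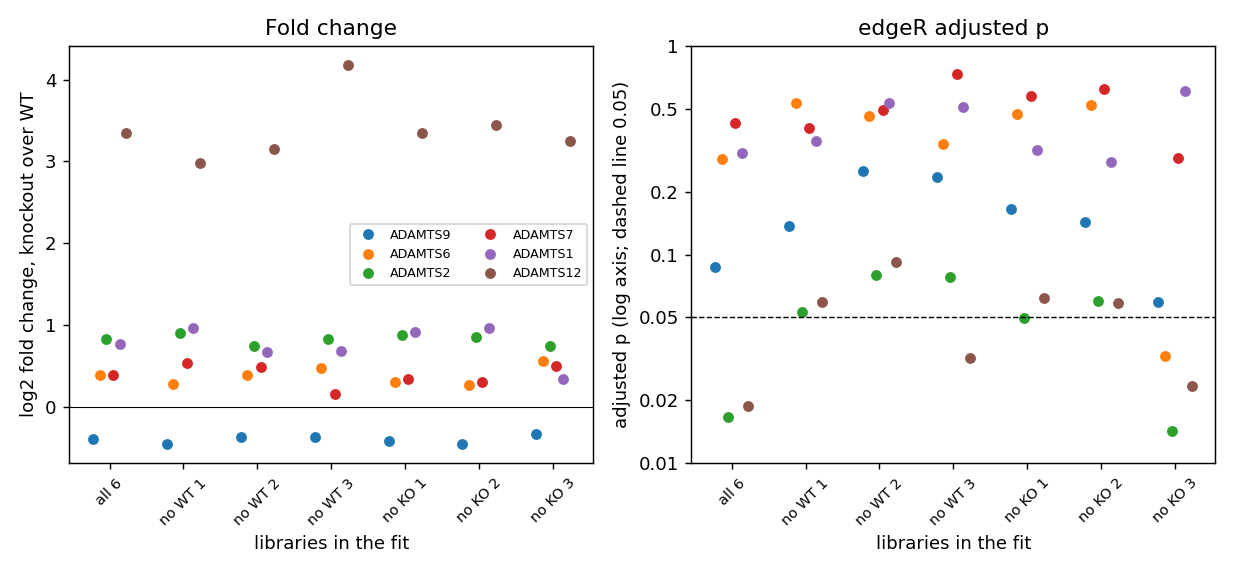
Log2 fold change (left) and edgeR adjusted p (right, log axis with a dashed line at 0.05) of the 6 tested ADAMTS genes with all 6 libraries and with each library left out, where KO stands for the knockout. Signs hold throughout, ADAMTS2 and ADAMTS12 are under the line in 2 of 6 left-out fits each, and ADAMTS6 is under it only without knockout replicate 3.

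The tested genes around the members were examined next. ADAMTS2, ADAMTS12 and ADAMTS6 all lie on chromosome 5, where 627 tested genes had a median log2 fold change of 0.0222 against 0.0495 over all genes, and 7.50% were called. Within 1 Mb of ADAMTS12, 5 genes were tested and 0 passed in edgeR; their median was -0.483. The nearest, AMACR, was at -0.11 ± 0.15 (SE) and RAI14 at -0.48 ± 0.14 (edgeR adjusted p = 0.0890). All 5 had a negative value, beside the 3.35 of ADAMTS12. Within 1 Mb of ADAMTS2, 23 genes were tested with a median of 0.195, and 3 passed. These, named after their values were seen, were the pseudogene AACSP1 (log2 fold change 2.51 ± 0.31, from 1.40 to 7.98 CPM), the splicing factor HNRNPH1 (0.51 ± 0.11) and the autophagy receptor SQSTM1 (-0.39 ± 0.07). Near ADAMTS9, the planar polarity gene PRICKLE2 had a log2 fold change of -1.49 ± 0.15 (from 130.6 to 46.5 CPM; edgeR adjusted p = 0.00426), and 1 of 8 neighbours passed. Around ADAMTS4, itself not tested, 31 genes had a median of -0.42, and 5 passed as lower and 0 as higher. Around ADAMTS10, also not tested, 30 had a median of 0.169, and 2 passed as higher and 0 as lower. These were ZNF558 (6.81 ± 0.27, from 0.260 to 29.8 CPM) and CERS4 (2.30 ± 0.35). Of 11 genes near ADAMTS6, 1 passed as higher, and 0 passed near ADAMTS1 or ADAMTS7.

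**Figure D4:**
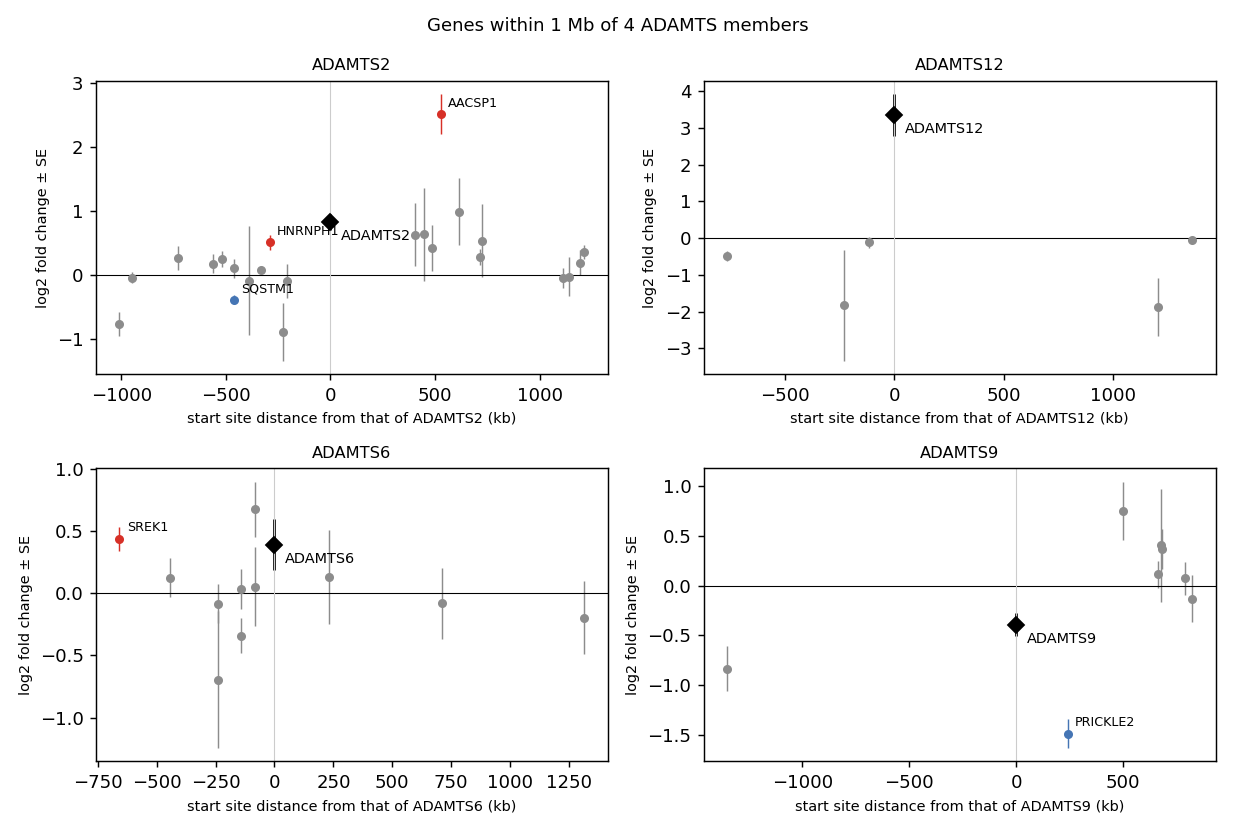
Log2 fold change (knockout over WT, bars are SE) of tested genes within 1 Mb of ADAMTS2, ADAMTS12, ADAMTS6 and ADAMTS9, by the distance of their start sites in kb, with positive distances downstream along the member's strand. Black diamonds are the members, red and blue points passed as higher and lower and are named, and grey points did not pass; no neighbour of ADAMTS12 passed.

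The other genes of this pathway were taken from lists that give 58 genes, of which 51 had a row and 35 were tested. Of the 35, 2 were called higher and 7 lower, 26 did not pass, and the median log2 fold change was -0.206. Over all genes tested, 3.21% were called higher and 4.63% lower. The lists were chosen with earlier results of these data known, so neither their share of calls nor this median stands for the pathway. The 7 became 1 without WT replicate 2, 3 in each of 4 other fits without 1 library, and 8 without knockout replicate 3. The called genes include the substrates versican, type I collagen and fibulin-2, the convertase furin and the transcription factor RUNX2.

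Among the 9 further ADAMTS genes only ADAMTS16 and ADAMTS13 were tested. ADAMTS16, linked to blood pressure and to renal and gonadal development, lay above every member in WT per kilobase of exon, at 14.8 ± 0.297 CPM per kb of exon, and was at 11.1 ± 0.436 in the knockout. On the RPKM scale it was at 0.788 ± 0.0236 in WT, below ADAMTS9 at 1.28. It was at 85.0, 86.5 and 88.4 CPM in the WT replicates and at 68.3, 63.9 and 63.8 CPM in those of the knockout. All knockout libraries lay below all WT libraries, at 65.3 ± 2.56 against 86.6 ± 1.74. The log2 fold change of -0.41 ± 0.09 passed narrowly (edgeR adjusted p = 0.0468). The call was kept in 1 of 6 fits without 1 library, that without knockout replicate 3, with an edgeR adjusted p of 0.0996 to 0.165 in the other 5. It was also lost with upper quartile scaling, library size alone, no low-count filter and both RPKM fits. ADAMTS13, the protease of von Willebrand factor, did not pass at 2.93 ± 0.559 and 1.54 ± 0.690 CPM (edgeR adjusted p = 0.240). ADAMTS14, a paralog of ADAMTS2 that also trims procollagen, had 59 and 50 counts in WT replicates 1 and 2, and 0 in WT replicate 3 and in the knockout, and was not tested.

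The ADAMTS-like proteins have the repeats but no protease domain, and PAPLN encodes papilin, which inhibits ADAMTS2 in vitro. Of these 7 genes none passed in edgeR, 0 had an unadjusted p under 0.05, and DESeq2 and limma-voom called 0. THSD4 was at 26.6 ± 22.8 and 12.4 ± 7.98 CPM, with 53.0 CPM in WT replicate 2 and less than ADAMTSL3 in the other WT libraries, and ADAMTSL3 was at 15.0 ± 1.53 and 13.8 ± 2.34 CPM.

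Among 22 substrates and cofactors, 15 were tested, of which 2 rose, 3 fell and 10 did not pass, beside 3.21% and 4.63% of all genes called higher and lower, and their median log2 fold change was 0.0464. FBLN2, the gene of the matrix protein fibulin-2, which binds ADAMTS12, had 21, 0 and 29 counts in the WT replicates and 1189, 1268 and 1173 in those of the knockout. From 0.874 ± 0.766 CPM it rose to 60.8 ± 2.76 (edgeR adjusted p = 0.00830), and each of 6 left-out fits kept the call. With 0 counts in WT replicate 2, FBLN2 entered the test only through its knockout libraries. The share of calls in this list, also chosen with earlier results known, therefore does not stand for ADAMTS substrates in general. Its WT level rests on few counts. COL1A1, the procollagen chain whose propeptide ADAMTS2 removes, fell while ADAMTS2 rose, with 117, 121 and 118 counts in the WT replicates against 16, 28 and 35. Its log2 fold change was -2.22 ± 0.35 (edgeR adjusted p = 0.0156), with the call kept in 2 of 6 left-out fits and lost without each WT replicate and without knockout replicate 2 (edgeR adjusted p of 0.0583 to 0.0696). The partner chain COL1A2 had at most 18 counts in a library and was not tested.

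The other 3 substrates that passed are named after their values were seen. VCAN, which encodes versican, the proteoglycan cut by ADAMTS1, ADAMTS4, ADAMTS5, ADAMTS9 and ADAMTS15, was at 360, 384 and 464 CPM in WT and 212, 227 and 163 CPM in the knockout. The groups were clearly apart, with a log2 fold change of -1.01 ± 0.16 (edgeR adjusted p = 0.0147), and the call was kept in 3 of 6 left-out fits. It was lost without WT replicates 2 and 3 and knockout replicate 1, at an edgeR adjusted p of 0.0655, 0.0600 and 0.0511. SDC4, the heparan sulfate proteoglycan syndecan-4, rose 1.54-fold from 568 ± 15.3 to 873 ± 43.2 CPM and passed in all 6 left-out fits. NID2, the basement membrane protein nidogen-2, fell 3.65-fold from 9.54 ± 1.25 to 2.61 ± 1.30 CPM, with the call kept without knockout replicate 3 and lost without each of the other 5 (edgeR adjusted p of up to 0.134). COMP itself, at 7 to 22 counts a library, was at 0.609 ± 0.178 and 0.775 ± 0.397 CPM and its groups overlapped.

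Knockout replicate 3 carried its own pattern among the substrates. THBS1, which encodes thrombospondin-1, was at 654 CPM there, against 145 to 193 CPM elsewhere. FBN1, the fibrillin-1 gene, was at 37.4 CPM there against 9.20 to 15.2 CPM. Neither passed in edgeR, and both were named after their values were seen. Among the tested members, ADAMTS1, ADAMTS2 and ADAMTS12 were also highest of the knockout libraries in this replicate. ADAMTS6, ADAMTS7 and ADAMTS9 were lowest in it. The values without this replicate are given above.

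Of the inhibitors, TIMP1 and TIMP2 were tested and neither passed in edgeR, while TIMP1 had an unadjusted p of 0.0261 and DESeq2 and limma-voom called 0. TIMP2 was abundant, at 1810 ± 44.4 and 1569 ± 232 CPM, and TIMP1 was at 17.3 ± 2.00 and 12.1 ± 1.86 CPM. For both, all knockout libraries lay below all WT libraries, as did 17.1% of all tested genes. TIMP3, the TIMP with the broadest action on ADAMTS enzymes, is not analysed here.

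FURIN, a convertase that matures ADAMTS proenzymes, fell 1.81-fold. It was at 820, 857 and 807 CPM in WT and 464, 482 and 429 CPM in the knockout, with no overlap, and its log2 fold change was -0.85 ± 0.08 (edgeR adjusted p = 0.00338). It passed in all 6 fits without 1 library and in all 9 other alternatives. The convertases PCSK5, PCSK6 and PCSK7 did not pass. POFUT2, which adds O-fucose to thrombospondin repeats and is needed for secretion of several ADAMTS enzymes, was at 60.6 ± 4.27 and 43.4 ± 1.68 CPM. Its fall of 1.40-fold passed narrowly (edgeR adjusted p = 0.0466) and the call was kept in 1 of 6 left-out fits, that without knockout replicate 3. It was lost without each of the other 5 libraries (edgeR adjusted p of 0.111 to 0.163), with limma-voom, with upper quartile scaling, with library size alone, without a low-count filter and on RPKM.

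LRP1, the endocytic receptor that clears several ADAMTS enzymes, was at 9.35 ± 0.745 and 8.24 ± 1.12 CPM, and its chaperone LRPAP1 at 108 ± 6.83 and 111 ± 8.38 CPM. Neither passed in edgeR, with 0 at an unadjusted p under 0.05 and 0 called by DESeq2 or limma-voom. Of the regulators, RUNX2, a transcription factor that can induce ADAMTS genes in cartilage, fell 1.93-fold from 127 ± 10.8 to 65.6 ± 7.34 CPM (edgeR adjusted p = 0.00923). It passed in 5 of 6 left-out fits, and was at an edgeR adjusted p of 0.0516 without WT replicate 2. IL1B, a cytokine that induces aggrecanases, did not pass at 88.5 ± 15.6 and 84.3 ± 7.08 CPM.

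**Figure D5:**
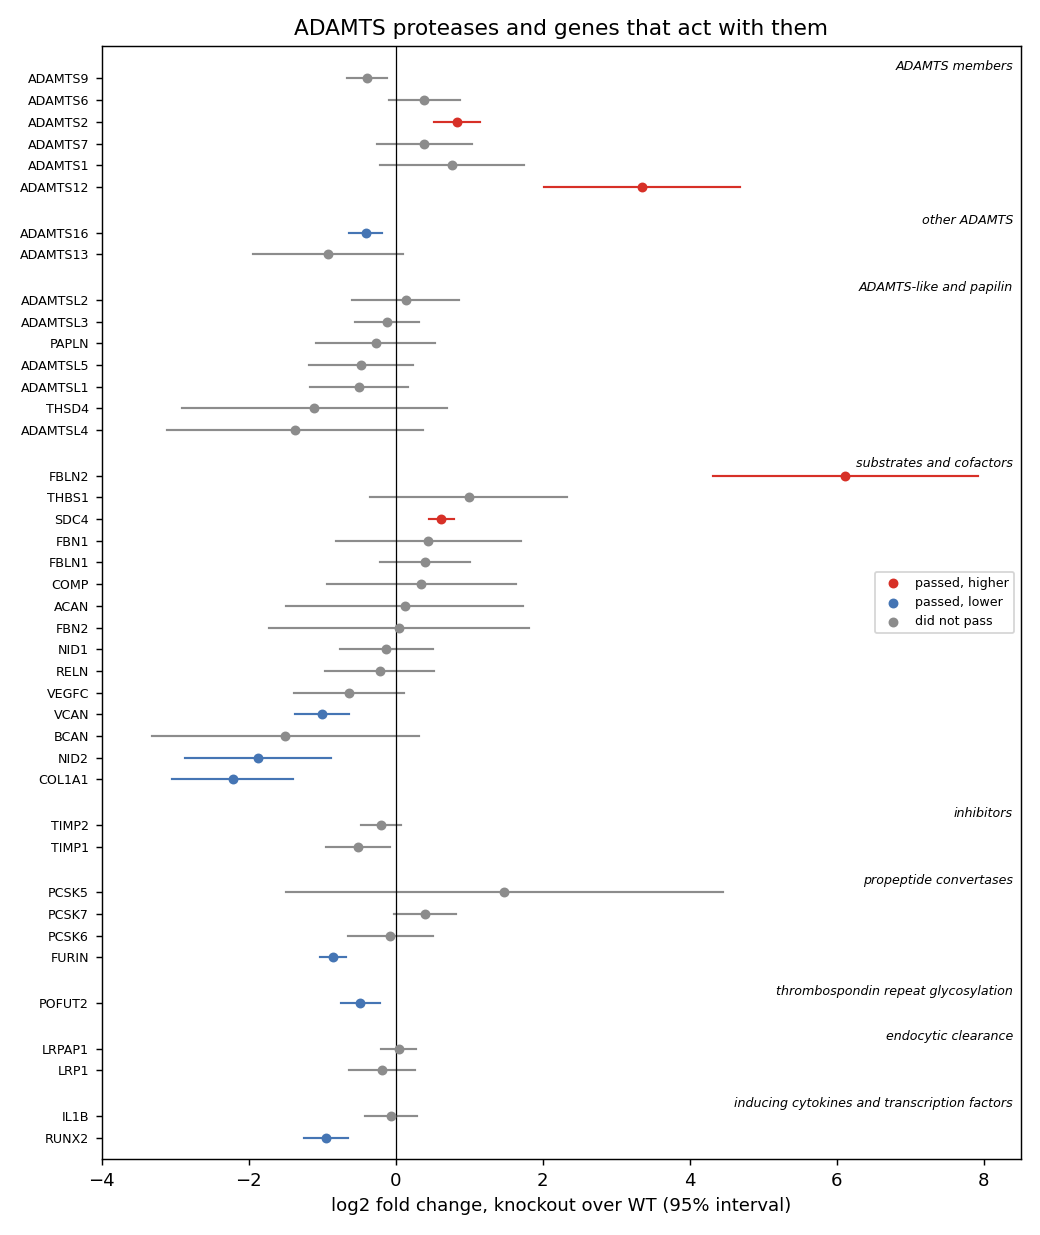
Log2 fold change (knockout over WT) with its 95% interval for the 6 tested ADAMTS members and the 35 tested pathway genes, by list, with red and blue for genes that passed as higher and lower and grey for those that did not. ADAMTS12 and FBLN2 lie farthest to the right, and COL1A1, NID2, VCAN, RUNX2 and FURIN lie to the left of 0.

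The genes whose library pattern was most like that of ADAMTS2 or ADAMTS12 were sought by the Euclidean distance of mean-centred log2 CPM over the 6 libraries. For ADAMTS2 these were SIVA1 (distance 0.112), GAD1 (0.115) and the pseudogene RRN3P1 (0.143), which rose 1.78-fold, 1.70-fold and 1.75-fold. For ADAMTS12 they were SLC4A11 (0.582), ZNF85 (0.582) and RAP1GAP (0.618), which rose 7.33-fold, 7.35-fold and 5.91-fold. The distances for ADAMTS12 were larger, and its WT counts are few. With 6 libraries in 2 groups, genes of similar fold change lie near each other by construction.

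Apart from the genes in the lists, 8 rows carry an ADAMTS symbol, all of them pseudogenes or antisense transcripts. None of the 2 that were tested passed. ADAMTS19-AS1 had 1 count in WT in all and 4, 4 and 3 in the knockout, with 0 counts of ADAMTS19 itself in all 6 libraries.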

How the data were processed

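Total RNA from HT1080 cells was depleted of ribosomal RNA and sequenced (3 WT and 3 knockout libraries, totals 17919112 to 20475280). For each gene the authors deposited whole-number estimated counts and, in a separate table, RPKM. Salmon 1.10.1 and the hg19 build are named, per the submitters' processing notes; their roles and the use of strand are not given in the sources used here. No hg19 position is used: positions are from GENCODE v29 (GRCh38) and RefSeq (GRCh38.p14), matched by symbol.

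One gene named differently in the 2 tables was left out. Counts were filtered with filterByExpr, scaled with TMM and tested in R 4.3.3 with edgeR 4.0.16. The p-values of 13965 genes were adjusted after Benjamini and Hochberg and called under 0.05. CPM uses TMM-scaled library sizes; SE and intervals derive from the F statistic. Limits from 3 counts cover counting error only. The alternatives were DESeq2 1.42.0, limma-voom and limma-trend on log2 RPKM (limma 3.58.1, pseudocounts of 1 and 0.1), other scalings and filters, and each library left out. The tests were tried on simulated data.

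Members and lists were chosen with earlier results of these data known. The text names all members. From each pathway list it names at most 2 called genes above 1 CPM on average, those that changed most, and 1 each way where calls went both ways. In lists without a call it names the 2 of highest mean CPM over all libraries, without regard to length. For each called member it gives the 3 genes of most alike pattern (pseudocount 0.5 on CPM). Other genes were named after their values were seen.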

Additional observations from a re-analysis of the deposited data

How the results depend on the processing

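The tested ADAMTS members kept their direction under all 15 alternatives. The count of members called higher was 2. It was 1 and 0 on log2 RPKM with a pseudocount of 1 and of 0.1, where a low gene such as ADAMTS12 is held near 0 by construction, and 0 to 3 over the fits without 1 library. The count called lower was 0, and 1 with DESeq2 (ADAMTS9). Pathway genes called higher stayed at 2 throughout. Those called lower numbered 7, but 6 with limma-voom, and 1 to 8 without 1 library. With upper quartile scaling, library size alone, no low-count filter or either RPKM fit, 5 were called lower. Over all genes 1095 were called, 2199 with DESeq2 and 223 to 1899 without 1 library. Among the named genes run under these alternatives, the sign changed only for LRPAP1, which was at -0.016 without WT replicate 3 and -0.031 without knockout replicate 3 (-0.031 to 0.0822 over the fits without 1 library), and for IL1B, at 0.079 without WT replicate 3 (-0.1688 to 0.0789), none of them called. Of those genes, 45 results lost and 2 gained a call under an alternative; the cause was not tested. No paired analysis was possible because the labels pair no WT library with a knockout library. The knockout labels carry no replicate numbers, and the knockout replicates were numbered here in the order of their labels. Depth limits ADAMTS12 in WT, ADAMTS4 and ADAMTS10, which rest on few or no counts.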
